A study of Mus musculus with 6 samples.

Results

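The cerebellins Cbln1, Cbln2 and Cbln4, the neurexins Nrxn2 and Nrxn3 and the delta receptor gene Grid1 were followed in single cells sorted from the hypothalamus of 6 mice. They were chosen by name as 3 ligands and 3 partners, and they make up 6 of the 21926 genes in the count tables. The groups were 3 male and 3 female mice at postnatal day 10, and every mouse had the genotype Ai14f/+;Sf1-Cre. Ai14 is a tdTomato reporter that Cre recombination switches on, and Sf1-Cre drives recombination in the lineage of Nr5a1 (SF-1), the transcription factor gene that marks the ventromedial hypothalamus (VMH). A sorted cell therefore need not hold Nr5a1 messenger RNA at the time of sorting. The title of the series concerns estrogen receptor alpha and energy expenditure that differs by sex, and the design sets males against females.

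Cerebellins are secreted proteins of the C1q family that are released at presynaptic terminals. A cerebellin binds a neurexin on the presynaptic membrane, in the splice form that carries the insert known as splice site 4. On the postsynaptic side Cbln1 and Cbln2 bind a delta glutamate receptor, GluD1 (the product of Grid1) or GluD2. The resulting bridge across the synaptic cleft was first worked out for Cbln1 at the cerebellar parallel fibre synapse, and Cbln2 and Cbln4 are known from forebrain and other circuits. Cbln4 is also known to bind the netrin receptor DCC.

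Of the 576 wells (96 per mouse), 530 held at least 500 genes with a count and under 25% mitochondrial counts, and 517 of these had a count of at least 3 of 8 pan-neuronal genes and are called neurons below. The male mice gave 92, 83 and 92 neurons and the female mice 78, 86 and 86. Total counts over the neurons of a mouse lay between 184939 and 782366, and female 2 stood apart, with a median of 2120 counts in a neuron against 5536 to 7979.5 in the other mice. A VMH marker (Nr5a1, Fezf1, Nkx2-1, Adcyap1, Gpr149 or Sox14) had a count in 411 neurons (79.5%), an arcuate marker (Pomc, Agrp, Npy, Ghrh, Kiss1, Tbx3 or Isl1) in 180 (34.8%), and a GABA gene (Gad1, Gad2 or Slc32a1) in 80 (15.5%). Single astrocyte genes were widespread (407 neurons, 78.7%), but 3 or more of the 7 were found together in 8 neurons (1.55%), and 5 of the 7 microglial genes were at 0. The 13 kept wells that were not called neurons had a median of 904 counts, 10 of them came from female 1, and 12 held a count of an astrocyte gene. Among those 13 wells Nrxn2 had 2 counts and the other 5 genes had 0, a number that allows a share of wells of up to 23.1% at this depth.

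Cbln1, the founding cerebellin, lies on chromosome 8 (87468405 to 87472609, minus strand, GRCm38). It had a count in 280 of the 517 neurons, or 54.2% (95% exact binomial interval 49.8 to 58.5%). Of these, 107 neurons held 1 count, 125 held 2 to 4 and 48 held 5 or more, up to 13 in a single neuron. The binomial interval, like those given below, pools neurons over mice and covers counting error only. Over mice the share of neurons with Cbln1 ran from 33.7% to 63.0%. Summed over the neurons of a mouse, Cbln1 stood at 219, 285 and 257 CPM (counts scaled by the total of the summed neurons) in males 1, 2 and 3, and at 171, 249 and 230 CPM in females 1, 2 and 3. The male and female ranges overlapped, with female 1 the lowest mouse.

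Cbln2 (chromosome 18, 86711110 to 86718283, plus strand) was found in 79 neurons, or 15.3% (12.3 to 18.7%), and 9 of these held 5 or more counts. Its level was 43.5, 78.6 and 55.5 CPM in males 1, 2 and 3, and 11.6, 27.0 and 76.0 CPM in females 1, 2 and 3. Female 3 lay within the male range, and the lowest values came from females 1 and 2, whose neurons held 5 Cbln2 counts each.

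Cbln4 (chromosome 2, 172036233 to 172043466, minus strand) was found in 165 neurons, or 31.9% (27.9 to 36.1%), with 22 neurons at 5 or more counts and a maximum of 9. It stood at 110, 103 and 129 CPM in males 1, 2 and 3, and at 120, 48.7 and 150 CPM in females 1, 2 and 3. The male mice sat close together and inside the female range, whose low end was the shallow female 2, with 9 Cbln4 counts in all.

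Among the partners, Nrxn2 (chromosome 19, 6418731 to 6544169, plus strand), a presynaptic adhesion molecule, had a count in 361 neurons, or 69.8% (65.7 to 73.8%). Over mice this share ran from 27.9% to 81.4%, well beyond the interval. The level of Nrxn2 was 294, 270 and 265 CPM in males 1, 2 and 3, and 220, 211 and 335 CPM in females 1, 2 and 3, so that the male values lay within the female range. Some of its exon bases are shared with Gm14964 and with Slc22a12 on the opposite strand, and reads there cannot be told apart without strand.

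Nrxn3 (chromosome 12, 88722876 to 90334935, plus strand), another neurexin gene, was found in 92 neurons, or 17.8% (14.6 to 21.4%), and 76 of these held a single count. It stood at 46.0, 24.3 and 28.4 CPM in males 1, 2 and 3, and at 27.8, 54.1 and 42.2 CPM in females 1, 2 and 3, with overlapping ranges. Exon bases of Nrxn3 are shared with Gm37980 on the opposite strand, and those of Grid1 with Gm27617 on the same strand.

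Grid1 (chromosome 14, 34820108 to 35583379, plus strand), which encodes GluD1, was the sparsest member, with 28 counts in 23 neurons, or 4.45% (2.84 to 6.60%). These were 7, 3 and 4 counts in males 1, 2 and 3 and 6, 2 and 6 counts in females 1, 2 and 3. Scaled to depth they came to 8.95, 5.62 and 5.16 CPM in the males and 13.9, 10.8 and 10.1 CPM in the females. The female CPM values lay above the male ones without overlap, but each rests on 7 counts or fewer. Male and female mice also did not overlap for 8.52% of the 6771 genes tested for sex, a set that leaves out Grid1 for its low counts. Counts are not divided by transcript length, so levels are compared here between mice and neurons for a given gene and not between genes.

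**Figure D1:**
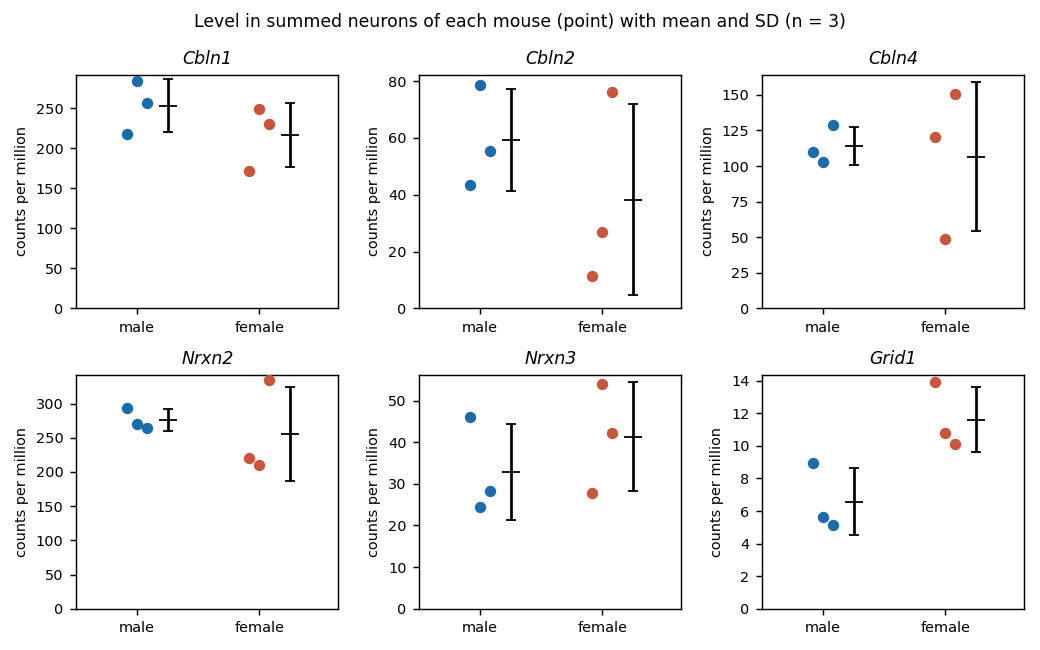
Level of each of the 6 genes (vertical axis, CPM over the summed neurons of a mouse) in male (left, blue) and female (right, red) mice; points are mice and bars show the mean and SD (n = 3). Cbln1 spans 219 to 285 CPM in males and 171 to 249 CPM in females. The ranges overlap for every gene drawn but Grid1, which rests on 28 counts. They did not overlap for 8.52% of the 6771 genes tested for sex, without Grid1.

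No member differed between the sexes in the test over all genes (edgeR quasi-likelihood, Benjamini-Hochberg adjusted over 6771 genes, 5 members tested). Cbln1 averaged 253 ± 33.1 CPM in males and 217 ± 40.3 CPM in females (SD, n = 3 each), a log2 fold change of 0.25 (SE 0.244). Cbln2 averaged 59.2 ± 17.9 CPM in males and 38.2 ± 33.7 CPM in females, a log2 fold change of 0.53 (SE 0.546), and Cbln4 averaged 114 ± 13.5 CPM in males and 106 ± 52.3 CPM in females, a log2 fold change of 0.06 (SE 0.354). The Cbln2 value moved to 0.11 without female 1 and to 1.78 without female 3. For Nrxn2 the log2 fold change was 0.12 (SE 0.245) and for Nrxn3 it was -0.24 (SE 0.395). The adjusted p was 0.999 for these 5 genes, while Grid1 fell under the filter on low counts and was not tested. Of all 6771 genes tested, 0 (0%) passed, 165 had an unadjusted p under 0.05, and DESeq2 called 4. Males and females did not overlap for 577 genes (8.52%), none of them a tested member. Among other trans-synaptic ligands and partners 0 of 30 passed, and among the intracellular scaffolds of neurexins 0 of 13.

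The share of neurons with a count was compared between the sexes by an exact two-sided permutation test over the 20 assignments of the mice, whose smallest p is 0.1. Cbln1 was detected in 59.4 ± 3.82% of male and 48.6 ± 13.0% of female neurons (exact p = 0.2), Cbln2 in 20.6 ± 2.87% and 9.46 ± 8.96% (p = 0.2), and Cbln4 in 36.8 ± 2.67% and 27.0 ± 14.5% (p = 0.2). Nrxn2 was detected in 79.1 ± 1.79% of male and 60.4 ± 28.5% of female neurons (exact p = 0.4). Shallow female 2 held the lowest female shares of these 4 genes, at 33.7%, 3.49%, 10.5% and 27.9% in the order given. With every neuron thinned to 2184 counts, which leaves 39 of the 86 neurons of female 2, the Cbln1 shares were 34.1 ± 2.04% in males and 31.2 ± 11.4% in females, the Cbln2 shares 10.7 ± 2.31% in males and 5.22 ± 4.54% in females, the Cbln4 shares 20.1 ± 0.359% in males and 15.7 ± 11.5% in females, and the Nrxn2 shares were 41.8 ± 7.79% in males and 43.3 ± 9.85% in females.

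Neurons with a count of Nr5a1 numbered 156, of Tac1 (the precursor of substance P) 193, of Rprm (reprimo, a cell cycle regulator) 194, of Pdyn (prodynorphin) 223 and of Sst (somatostatin) 103, and 78 neurons had none of the 5. The groups overlap: 87 neurons held both Tac1 and Rprm (45.1% of Tac1 and 44.8% of Rprm neurons), and 91 held both Nr5a1 and Pdyn (58.3% of Nr5a1 and 40.8% of Pdyn neurons). Levels below are means and SD over 6 mice of the CPM of the summed group. The groups come from the same mice, and these SDs are not the spread of differences within a mouse. Steps set against them only describe the order, and comparisons within mice follow further below. Shares of neurons given without an SD are pooled over mice.

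Cbln1 was highest in Tac1 neurons (293 ± 78.9 CPM), followed by Nr5a1 (277 ± 81.7 CPM), Rprm (265 ± 46.9 CPM), Pdyn (253 ± 59.8 CPM) and Sst neurons (209 ± 77.0 CPM), and lowest in neurons with none of the 5 (116 ± 90.1 CPM). In this order the step between Sst neurons and those with no marker exceeded the SD of both groups, and no other neighbouring pair differed by that much. A Cbln1 count was present in 73.6% of Tac1, 69.9% of Nr5a1, 66.5% of Rprm, 62.8% of Pdyn and 53.4% of Sst neurons, and in 23.1% of the neurons with none. The marker groups were also deeper, at medians of 5972 to 7198 counts per neuron, against 3962 in the neurons with no marker. After thinning, with the groups drawn again from the thinned counts, the shares were 43.3% of 141 Tac1, 25.5% of 55 Sst and 24.6% of 130 neurons with none. The last group then includes neurons whose marker count was lost in thinning.

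Cbln2 had its lowest level in Nr5a1 neurons (17.2 ± 16.0 CPM, 9.62% of neurons with a count). It stood at 81.7 ± 85.8 CPM in Sst neurons (22.3%), 58.2 ± 43.5 CPM in Rprm (20.6%), 47.3 ± 27.7 CPM in Tac1 (14.5%), 45.6 ± 34.2 CPM in neurons with none (14.1%) and 30.6 ± 31.6 CPM in Pdyn neurons (11.7%). No neighbours in this order differed beyond their SD, and Cbln2 was at 0 in 1 or 2 mice of the Nr5a1, Tac1, Pdyn and Sst groups.

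Cbln4 was highest in Sst (160 ± 91.1 CPM) and Rprm neurons (147 ± 68.9 CPM), followed by neurons with none (141 ± 108 CPM) and Tac1 neurons (129 ± 26.7 CPM). It was lowest in Pdyn (89.2 ± 23.3 CPM) and Nr5a1 neurons (89.1 ± 32.7 CPM). The step between Tac1 and Pdyn neurons exceeded both SDs, and no other neighbouring step did. Sst neurons had a Cbln4 count in 41.7%, Tac1 neurons in 40.9%, Rprm neurons in 40.2%, Nr5a1 neurons in 32.1%, Pdyn neurons in 27.8% and neurons with none in 26.9%. The neurons with none, which were above Tac1 neurons by level, had the lowest share, and no order is read for them. After thinning, a Cbln4 count was present in 36.4% of Sst, 24.2% of Nr5a1, 23.5% of Rprm and 22.0% of Tac1 neurons. It was present in 15.9% of Pdyn neurons and in 14.6% of those with none. By thinned share, Nr5a1 neurons were thus no longer below Rprm and Tac1 neurons.

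Among the partners, Nrxn2 lay between 247 ± 46.1 CPM in Nr5a1 and 301 ± 52.1 CPM in Sst neurons, and Nrxn3 between 33.9 ± 16.6 CPM in Tac1 and 41.0 ± 25.1 CPM in Sst neurons, with no step between neighbouring groups beyond the SD. Grid1 reached 9.73 ± 8.96 CPM in Tac1 neurons (15 counts) and 1.05 ± 2.57 CPM in Sst neurons, where 1 of 103 neurons had a count (0.971%, interval 0.0246 to 5.29%).

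**Figure D2:**
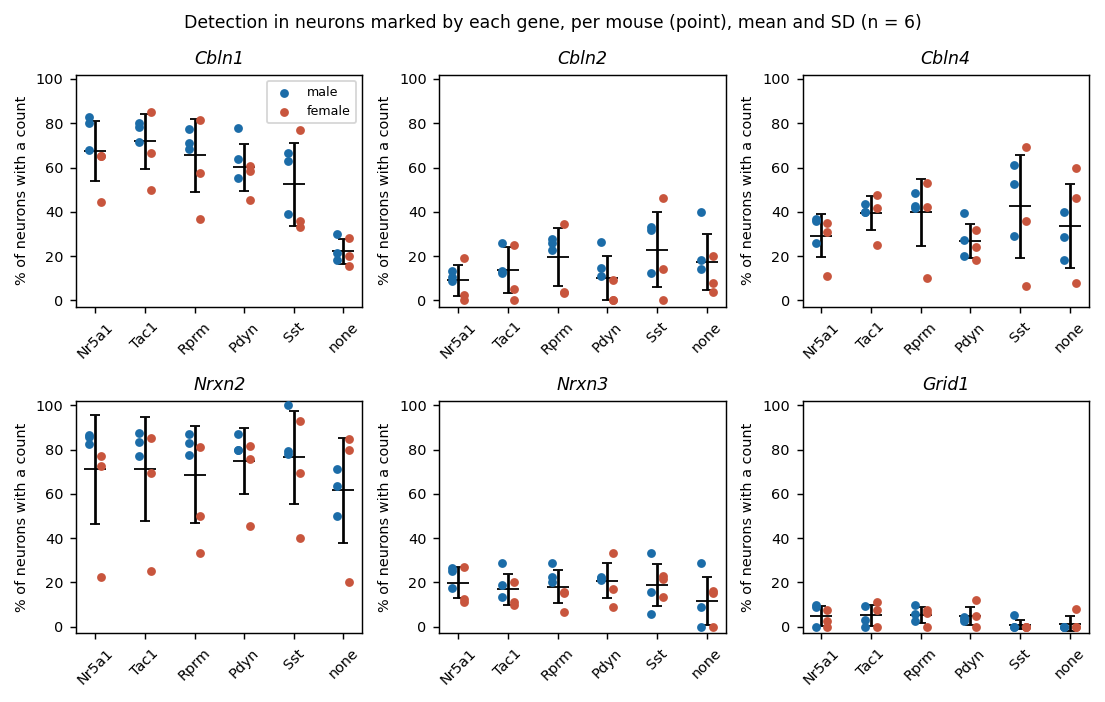
Percent of neurons with a count of each gene (vertical axis) in neurons marked by Nr5a1, Tac1, Rprm, Pdyn or Sst and in neurons with none of these; points are mice (blue male, red female), bars the mean and SD (n = 6). Cbln1 is found in 71.9 ± 12.5% of Tac1 neurons and in 22.2 ± 5.70% of those with none, and female 2 is the low point for Nrxn2 in every group.

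Each marker group was then set against the neurons of the same mice without that marker, with the mouse as a block and p-values adjusted over all genes tested. Cbln1 was higher in Tac1-detected neurons, and Cbln2 and Cbln4 were lower in Pdyn-detected neurons. No tested member passed in the Nr5a1, Rprm and Sst comparisons, and Nrxn2 passed in none of the 5. Nrxn3 and Grid1 fell under the filter on low counts in each of the 5 comparisons and were not tested. Cbln2 was under it with Nr5a1 and with Sst. Fitted without the filter, Cbln2 differed by 0.83 on the log2 scale with Sst (adjusted p = 0.360).

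Cbln1 in Tac1-detected neurons stood at 218, 394 and 366 CPM in males 1, 2 and 3 and at 193, 290 and 299 CPM in females 1, 2 and 3. In Tac1-undetected neurons it stood at 219, 206 and 192 CPM in the males and at 150, 234 and 146 CPM in the females. It was higher with Tac1 in 5 of 6 mice, and in male 1 the values were level. The means were 293 ± 78.9 CPM in Tac1-detected and 191 ± 36.2 CPM in Tac1-undetected neurons, a log2 fold change of 0.64 (SE 0.124, adjusted p = 0.000969). Cbln1 was 1 of 4 members tested here, where 0.385% of the 4414 genes were higher and 0.702% passed in either direction. Arcuate markers summed to 266 ± 227 CPM in Tac1-detected and 1018 ± 790 CPM in Tac1-undetected neurons, GABA genes to 19.3 ± 26.1 CPM (Slc32a1 at 0) and 87.0 ± 36.1 CPM, and VMH markers to 604 ± 114 CPM and 481 ± 101 CPM. Among the 353 neurons with a count of the glutamate transporter gene Slc17a6 and none of the GABA genes, the Cbln1 difference was 0.46 on the log2 scale (adjusted p = 0.138). The call was also lost with DESeq2 (adjusted p = 0.132), without the mouse as a block (0.999) and without male 3 (0.0626), and the part of arcuate neurons in it was not tested.

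Cbln2 in Pdyn-detected neurons stood at 17.9, 82.8 and 41.8 CPM in males 1, 2 and 3 and at 0, 0 and 41.1 CPM in females 1, 2 and 3. In Pdyn-undetected neurons it stood at 77.6, 74.8 and 80.8 CPM in the males and at 26.0, 32.0 and 100 CPM in the females. It was lower with Pdyn in 5 of 6 mice, male 2 being the exception, with means of 30.6 ± 31.6 CPM in Pdyn-detected and 65.3 ± 29.6 CPM in Pdyn-undetected neurons. The log2 fold change was -1.05 (SE 0.266, adjusted p = 0.0200), from 60 counts in Pdyn-detected and 114 in Pdyn-undetected neurons. The call was lost with DESeq2 (adjusted p = 0.183), without the block, and without male 1 (0.247), male 3 (0.0885) or female 3 (0.0816).

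Cbln4 in Pdyn-detected neurons stood at 64.8, 94.7 and 81.6 CPM in males 1, 2 and 3 and at 130, 69.9 and 94.5 CPM in females 1, 2 and 3. In Pdyn-undetected neurons it stood at 170, 110 and 217 CPM in the males and at 109, 44.8 and 190 CPM in the females. It was lower with Pdyn in 4 of 6 mice and higher in females 1 and 2. The means were 89.2 ± 23.3 CPM in Pdyn-detected and 140 ± 63.5 CPM in Pdyn-undetected neurons, a log2 fold change of -0.87 (SE 0.172, adjusted p = 0.00115). These were 2 of 4 members tested, against 0.813% of the 4180 genes that were lower and 1.89% in either direction. GABA genes summed to 29.9 ± 20.6 CPM in Pdyn-detected and 91.5 ± 47.4 CPM in Pdyn-undetected neurons, and arcuate markers to 663 ± 728 CPM and 617 ± 665 CPM. Among the 353 glutamatergic neurons Cbln4 differed by -1.12 on the log2 scale (adjusted p = 0.000105). The call was lost with DESeq2 (adjusted p = 0.281), without the block and without male 3 (0.0891).

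In Nr5a1-detected neurons Cbln4 was at 89.1 ± 32.7 CPM, against 121 ± 39.2 CPM in Nr5a1-undetected neurons, with the detected value lower in 6 of 6 mice (log2 fold change -0.49, SE 0.167, adjusted p = 0.156). It passed in 2 of 13 alternatives, with a limit of 2 counts for detection (-1.42, adjusted p = 0.000663) and among glutamatergic neurons (-0.80, adjusted p = 0.0406), and stood at 0.25 after thinning. Cbln1 was at 277 ± 81.7 CPM against 213 ± 39.5 CPM (0.34, adjusted p = 0.191, 5 of 6 mice higher), and passed without female 3 (0.49, adjusted p = 0.0425). The count of members passing was 0 of 3, where 1.16% of 3982 genes passed. Cbln2 was under the filter, with 22 counts in Nr5a1-detected and 152 in Nr5a1-undetected neurons. It stood at 12.7, 28.3 and 14.9 CPM in Nr5a1-detected neurons of males 1, 2 and 3 and at 4.24, 0 and 43.0 CPM in those of females 1, 2 and 3. In Nr5a1-undetected neurons it stood at 56.7, 112 and 77.2 CPM in the males and at 20.4, 30.9 and 91.2 CPM in the females, so that it was lower with Nr5a1 in 6 of 6 mice. Fitted without the filter, where 44 of 15147 genes passed, its log2 fold change was -1.88 (adjusted p = 9.69e-07).

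With Rprm, Cbln4 was at 147 ± 68.9 CPM in Rprm-detected and 88.1 ± 35.4 CPM in Rprm-undetected neurons (log2 fold change 0.79, SE 0.198, adjusted p = 0.147, 4 of 6 mice higher). Cbln1 was higher in 6 of 6 mice, at 265 ± 46.9 CPM against 212 ± 41.4 CPM, but its log2 fold change of 0.36 did not pass (adjusted p = 0.461). Here 0 of 4 members and 0.109% of 4578 genes passed. With Sst, Cbln4 was at 160 ± 91.1 CPM in Sst-detected and 98.0 ± 24.4 CPM in Sst-undetected neurons (0.69, SE 0.183, adjusted p = 0.102, 5 of 6 mice higher), and 0 of 3 members and 0.221% of 3165 genes passed. The Rprm difference of Cbln4 passed in 4 of 12 alternatives, without male 2 (adjusted p = 0.0387), without male 3 (0.00134), without the filter (0.0171) and among glutamatergic neurons (0.0416). The Sst difference passed in 2 of 13, without male 1 (adjusted p = 0.0139) and with a limit of 2 counts (0.0260). Cbln2 was at 58.2 ± 43.5 CPM in Rprm-detected and 41.9 ± 24.5 CPM in Rprm-undetected neurons (log2 fold change 0.62, SE 0.267, adjusted p = 0.740), and 3 mice were higher and 3 lower.

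**Figure D3:**
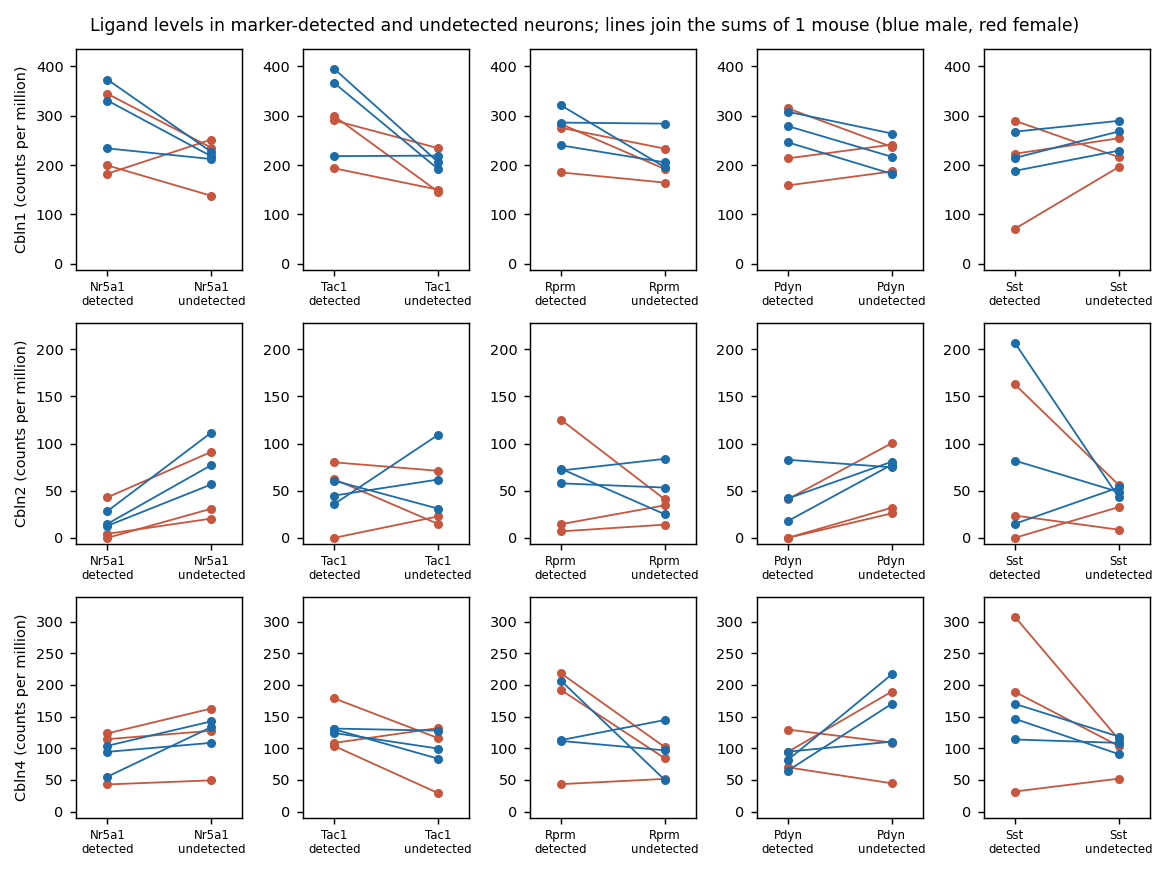
Levels of Cbln1, Cbln2 and Cbln4 (rows, CPM) in neurons with a count of each marker (left in each panel) and without one (right); each line joins the sums of 1 mouse (blue male, red female). Cbln1 lies higher with Tac1 in 5 of 6 mice, and Cbln2 and Cbln4 lie lower with Pdyn in 5 and 4 of 6 mice.

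Few other genes of the trans-synaptic group passed with the 5 markers. C1ql2, a secreted C1q-like protein known to bind neurexins, was the 1 of 18 tested ligands and partners that passed with Nr5a1, at 126 ± 79.7 CPM in Nr5a1-detected and 72.3 ± 33.8 CPM in Nr5a1-undetected neurons (log2 fold change 0.90, adjusted p = 0.00156, 5 of 6 mice higher). With Tac1, Rprm, Pdyn and Sst, 0 of 22, 0 of 23, 0 of 20 and 0 of 17 passed. Of the scaffolds, Sdcbp, whose product syntenin binds neurexin tails through PDZ domains, was higher with Pdyn, at 104 ± 74.5 CPM in Pdyn-detected and 59.9 ± 41.0 CPM in Pdyn-undetected neurons (0.84, adjusted p = 0.00900, 4 of 6 mice). It was 1 of 4 scaffolds tested there, and 0 of 3, 0 of 5, 0 of 6 and 0 of 3 passed with Nr5a1, Tac1, Rprm and Sst. The median log2 fold change of the ligand and partner list lay between -0.18 (Sst) and 0.17 (Tac1), beside medians of all genes between -0.01 and 0.00.

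Lists that describe neuron type were read in the same comparisons. Among neuropeptide precursors, with Nr5a1, 3 of 9 tested were higher and 4 lower, with Tac1, 2 of 9 higher and 3 lower, with Pdyn, 0 of 9 higher and 4 lower, with Sst, 1 of 8 higher and 1 lower, and with Rprm 0 of 10 passed. Sst itself was lower in Tac1-detected neurons, at 295 ± 195 CPM against 1545 ± 779 CPM in Tac1-undetected neurons (log2 fold change -2.40, adjusted p = 2.20e-27, 6 of 6 mice), and at 0.59 (adjusted p = 0.0689) in the glutamatergic neurons. VMH identity genes passed, higher in each case, in 1 of 6 tested with Nr5a1, 1 of 8 with Tac1 and 2 of 7 with Pdyn, and in 0 of 7 with Rprm and 0 of 6 with Sst. The fast transmitter genes tested, 1 in each comparison of neurons, did not pass. Between the sexes 0 of 12 neuropeptide, 0 of 10 VMH identity and 0 of 2 fast transmitter genes passed.

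Neurons were next split by each ligand. Cbln1-detected neurons held more Tac1 and more genes of VMH identity. Of the 7 tested VMH identity genes 5 were higher and 0 lower, with a list median of 0.98 on the log2 scale beside -0.01 for all genes. Bdnf, a neurotrophin gene, averaged 212 ± 58.8 CPM in Cbln1-detected and 99.6 ± 54.9 CPM in Cbln1-undetected neurons (log2 fold change 1.26, SE 0.166, adjusted p = 3.04e-06). Lypd1, a Ly6 family gene, differed by 1.09, Fezf1, a zinc finger transcription factor gene of the VMH, by 1.00, and Adcyap1, the precursor of the peptide PACAP, by 0.98, with Fezf1 higher in 5 and the others in 6 of 6 mice. Of 8 neuropeptide precursors tested, 3 were higher and 1 lower. Tac1 averaged 1155 ± 385 CPM in Cbln1-detected and 366 ± 298 CPM in Cbln1-undetected neurons (1.70, adjusted p = 3.29e-11, 6 of 6 mice), which is the Tac1 and Cbln1 relation above read from the other gene. Glipr1 (2.20), Chst8, a sulfotransferase gene (1.28), and H2-Q2 (1.23), an MHC class I gene with near-identical copies that may share reads, were also higher in 6 of 6 mice.

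Genes lower in Cbln1-detected neurons were led by Sst (410 ± 196 CPM in Cbln1-detected and 1858 ± 991 CPM in Cbln1-undetected neurons, log2 fold change -2.11, adjusted p = 1.64e-12). They also included Tmem176b (-1.50), Lhfpl5 (-1.34), the synaptic vesicle gene Synpr (-1.32) and the nociceptin precursor gene Pnoc (-1.14), each lower in 6 of 6 mice. Read from Sst, the Cbln1 difference did not pass (log2 fold change -0.20, adjusted p = 0.992, lower in 5 of 6 mice). Cbln1 stood at 209 ± 77.0 CPM in Sst-detected and 242 ± 34.7 CPM in Sst-undetected neurons. A Cbln1 count was present in 53.4% of Sst neurons, beside 54.2% of all neurons. Nxph1, which encodes neurexophilin, a secreted ligand of neurexins, was the 1 of 18 ligands and partners to pass, at 43.4 ± 27.3 CPM in Cbln1-detected and 73.0 ± 43.8 CPM in Cbln1-undetected neurons (-0.84, adjusted p = 0.0376, lower in 5 of 6 mice). Sdcbp was the 1 of 3 scaffolds to pass (-0.63, adjusted p = 0.0412, lower in 6 of 6 mice). Most alternatives ended both calls: Nxph1 passed in 4 of 11 and Sdcbp in 2 of 12. Without 1 mouse the adjusted p reached 0.163 for Nxph1, which was lost without male 1, 2 or 3 or female 3, and 0.356 for Sdcbp, which held without female 1 only. In all, 52 genes were higher and 45 lower of 3986 tested (2.43% in either direction), and 0 of 3 members tested were among them. Arcuate markers summed to 118 ± 67.5 CPM in Cbln1-detected and 1631 ± 1262 CPM in Cbln1-undetected neurons, and GABA genes to 20.2 ± 19.9 CPM and 121 ± 58.2 CPM. Among the 353 glutamatergic neurons 8 genes passed. There Tac1 (1.34, adjusted p = 1.93e-07), Bdnf (0.99, adjusted p = 0.00416), Lypd1 (1.21) and Tmem176b (-1.25) were among those that passed, while Sst stood at 0.61 (adjusted p = 0.530) in the other direction, and Adcyap1 (0.49) and Fezf1 (0.64) did not pass.

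Cbln2-detected neurons numbered 72 in the 4 mice (3 males and female 3) with at least 5 of them. Rprm averaged 311 ± 105 CPM in Cbln2-detected and 127 ± 45.4 CPM in Cbln2-undetected neurons (SD, n = 4), a log2 fold change of 1.32 (adjusted p = 2.76e-07, 4 of 4 mice). Cartpt, the precursor of the CART peptide, was higher (1.60, adjusted p = 0.000675, 4 of 4 mice), as was the neurotensin precursor gene Nts (2.05, adjusted p = 2.76e-07, 3 of 4 mice), and Blcap differed by 0.49. Pdyn was lower, at 147 ± 63.2 CPM in Cbln2-detected and 242 ± 50.4 CPM in Cbln2-undetected neurons (-0.75, adjusted p = 0.0234), and so were Lypd1 (-0.91) and A230065H16Rik (-1.13), each in 4 of 4 mice. The Pdyn difference is the Pdyn and Cbln2 relation above read from the other gene. Of 10 neuropeptide precursors tested 2 were higher and 1 lower, and of 8 VMH identity genes 0 were higher and 1 lower. Among the alternatives Rprm passed in 9 of 11, Nts in 8 of 10, Cartpt in 7 of 10 and A230065H16Rik in 7 of 11, while Pdyn passed in 4 of 11, Lypd1 in 3 of 10 and Blcap in 1 of 11. Of the runs without 1 mouse, Pdyn and Lypd1 passed without male 2 only and Blcap in none. Read from Rprm over 6 mice, the Cbln2 difference given above did not pass. These 7 are among the 8 of 4661 genes (0.172%) that passed, and DESeq2 called 1 gene. No trans-synaptic ligand or partner (0 of 21), scaffold (0 of 7) or member (0 of 4) was among them.

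Tac1 was higher in Cbln4-detected neurons too, at 1237 ± 548 CPM in Cbln4-detected and 639 ± 183 CPM in Cbln4-undetected neurons (log2 fold change 0.84, adjusted p = 5.65e-10, 6 of 6 mice). Read from Tac1, the Cbln4 difference did not pass, at 129 ± 26.7 CPM in Tac1-detected and 98.0 ± 38.2 CPM in Tac1-undetected neurons (0.32, adjusted p = 0.607, 5 of 6 mice higher). Of 9 neuropeptide precursors tested, 4 were higher and 1 lower: Penk, the enkephalin precursor, differed by 0.87 (6 of 6 mice) and Pdyn by -0.73 (lower in 5 of 6), while Sst passed at 1.17 with 3 mice higher and 3 lower. The Pdyn difference is again the Pdyn and Cbln4 relation above read from the other gene. Ifi27 (1.07), Lhfpl5 (0.90) and the protease inhibitor gene A2ml1 (0.87) were higher in 6 of 6 mice. The calbindin gene Calb1 was lower, at 390 ± 172 CPM in Cbln4-detected and 744 ± 262 CPM in Cbln4-undetected neurons (-1.01, adjusted p = 7.73e-11), together with Plekhb1 (-1.31), Cmbl (-1.23) and the neuroserpin gene Serpini1 (-0.66), each in 6 of 6 mice. Fezf1 (-0.63) and Lypd1 (-0.56) were the 2 of 7 VMH identity genes that passed, both lower, in contrast to their direction in Cbln1-detected neurons. That difference between the splits was not tested, and most alternatives ended both calls in the Cbln4 split (Fezf1 passed in 5 of 13 and Lypd1 in 4 of 13). Igsf21, an immunoglobulin family protein known to bind neurexin-2 alpha, was the 1 of 20 ligands and partners to pass, at 64.8 ± 9.90 CPM in Cbln4-detected and 116 ± 23.0 CPM in Cbln4-undetected neurons (-0.79, adjusted p = 0.0324, lower in 6 of 6 mice). Igsf21 passed in 4 of 12 alternatives, Lhfpl5 in 3 of 11 and Serpini1 in 5 of 12. Leaving out male 3 ended the calls of Fezf1, Lypd1 and Igsf21, as did leaving out female 1. Male 2 (Fezf1, Igsf21), female 2 (Lypd1) and female 3 (Lypd1, Igsf21) each ended others, and the adjusted p without 1 mouse reached 0.159 for Fezf1, 0.328 for Lypd1 and 0.209 for Igsf21. Of 4445 genes 0.697% passed, and 0 of 3 members did. GABA genes summed to 79.6 ± 54.1 CPM in Cbln4-detected and 41.3 ± 12.6 CPM in Cbln4-undetected neurons, and Penk stood at 0.26 (adjusted p = 0.965) among glutamatergic neurons.

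**Figure D4:**
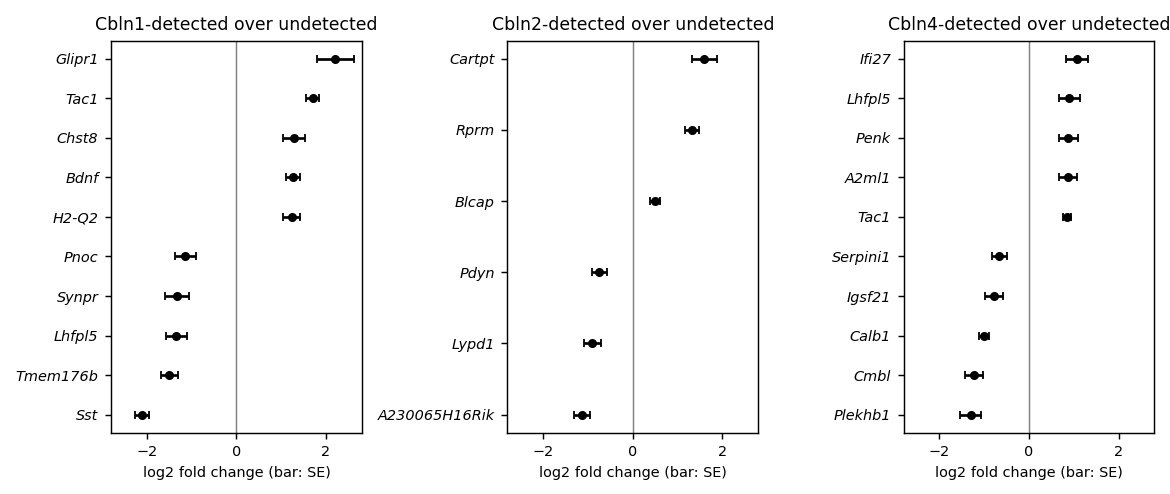
Log2 fold change (horizontal axis, bars SE) of the genes with the largest changes in the same direction in every mouse, for neurons with a count of Cbln1, Cbln2 or Cbln4 over neurons without one. Tac1 lies above 0 in the Cbln1 (1.70) and Cbln4 (0.84) panels, and Lhfpl5 lies below 0 for Cbln1 (-1.34) and above it for Cbln4 (0.90).

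Neurons with a Cbln1 count were deeper than those without in 6 of 6 mice, and the median ranged over mice from 2607 to 10096 counts in Cbln1-detected and from 1850 to 6817 counts in Cbln1-undetected neurons. After thinning to 2184 counts, Tac1 was among the 4 genes that passed with Cbln1 (log2 fold change 1.33), and so was Sst (-1.19).

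A ligand count was present in 373 neurons (72.1%), a partner count in 378 (73.1%), and both in 291 (56.3%). Whether both occur together more often than their separate shares would give was not tested for these totals. In 57 neurons no member was detected, and 130 neurons (25.1%) held 2 or more ligands. Cbln1 alone was the most frequent pattern, in 166 neurons (32.1%), followed by Cbln1 with Cbln4 in 72 (13.9%) and Cbln4 alone in 56 (10.8%). Cbln2 alone, Cbln1 with Cbln2, and the 3 ligands together were each found in 21 neurons (4.06%), and Cbln2 with Cbln4 in 16 (3.09%). The 144 neurons (27.9%) with no ligand had a median of 3785 counts, against 5201 to 7947 in the other patterns, and thinning raised their share to 50.1%. Among Tac1 neurons 24.4% held Cbln1 with Cbln4 and 14.0% no ligand, while among neurons with none of the 5 markers 2.56% held that pair and 46.2% no ligand.

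**Figure D5:**
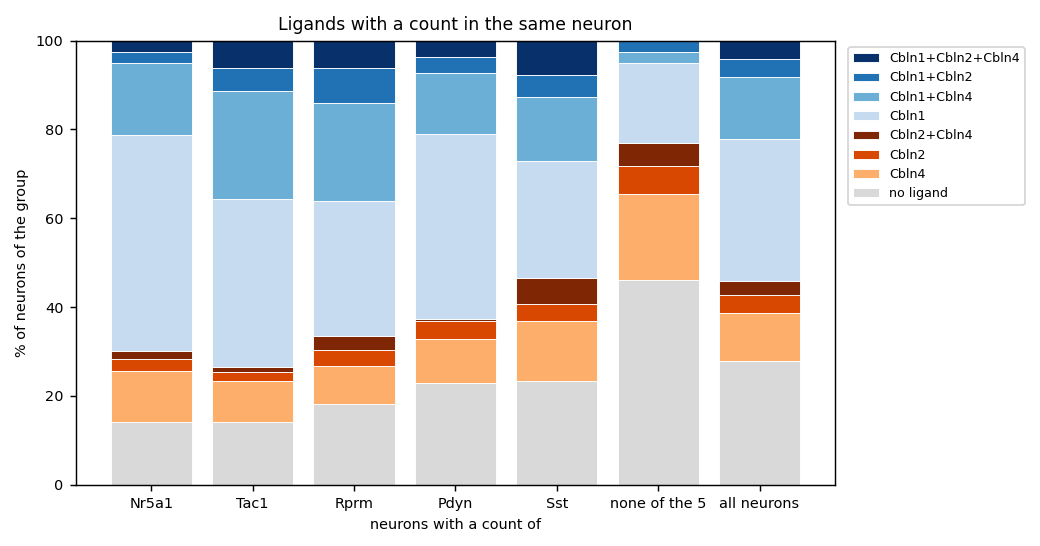
Share of neurons (vertical axis, percent, pooled over mice) with each combination of Cbln1, Cbln2 and Cbln4 counts, for neurons marked by each gene, for those with none of the 5 and for all 517 neurons. The blue layers, which hold Cbln1, are shortest in the neurons with none of the 5, and Cbln1 alone makes up 48.7% of Nr5a1 neurons and 17.9% of those with none.

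Of 15 pairs of members, 10 could be tested by an exact sign-flip test over mice (two-sided, smallest p 0.03125 with 6 mice, adjusted over the 10 pairs), and the 5 pairs with Grid1 had too few neurons. Cbln2 was found in 20.4 ± 9.68% of Cbln4-detected and 12.5 ± 7.60% of Cbln4-undetected neurons, higher in 6 of 6 mice (difference 7.89 ± 6.11 percentage points, SD, exact p = 0.03125, adjusted p = 0.104). Nrxn2 was found in 83.3 ± 26.4% of Nrxn3-detected and 66.7 ± 19.5% of Nrxn3-undetected neurons, and Cbln4 in 34.1 ± 10.8% of Nrxn2-detected and 25.2 ± 12.3% of Nrxn2-undetected neurons, also in 6 of 6 mice each and with the same exact p and adjusted p. That was the smallest adjusted p of the 10 pairs, and with this number of mice a pair could pass only if most of the others reached the smallest p too. After thinning, fewer mice had enough neurons for 2 of these 3 pairs. The difference was 8.37 percentage points for Cbln2 with Cbln4 (5 mice, 4 higher, exact p = 0.1875). It was 11.7 points for Nrxn2 with Nrxn3 (3 mice, 3 higher, exact p = 0.25). For Cbln4 with Nrxn2 it was 1.21 points (6 mice, 4 higher, exact p = 0.719). Cbln1 and Cbln4, the most frequent pair of ligands, differed by 0.402 percentage points (54.7 ± 8.14% of Cbln4-detected and 54.3 ± 11.8% of Cbln4-undetected neurons with Cbln1, 3 of 6 mice higher). Cbln1 with Nrxn2 differed by 4.12 points unthinned and -13.6 points thinned (exact p = 0.4375 and 0.125), so no order is read from it. Of the 23 neurons with Grid1, 15 also had Cbln1 (65.2%, beside 54.2% of all neurons), a difference that was not tested. These 15 were 5.36% of the Cbln1 neurons. Of the same 23, 17 had Nrxn2, 7 had Cbln4, 6 had Nrxn3 and 3 had Cbln2.

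Levels were compared between members' splits as well, and no tested member passed in another ligand's comparison. Grid1 was under the filter in each ligand's comparison, and Nrxn3 in those of Cbln1 and Cbln4. Fitted without the filter, Nrxn3 differed by -0.80 on the log2 scale with Cbln1 (adjusted p = 0.222). The Cbln2 difference with Cbln4, given next, passed in 1 of 12 alternatives (adjusted p = 0.0405). Cbln2 stood at 80.9 ± 44.7 CPM in Cbln4-detected and 39.2 ± 28.8 CPM in Cbln4-undetected neurons (log2 fold change 0.71, adjusted p = 0.379, 5 of 6 mice higher), and Cbln4 at 160 ± 31.6 CPM in Cbln2-detected and 113 ± 21.3 CPM in Cbln2-undetected neurons (0.51, adjusted p = 0.586, 4 of 4 mice higher). Nrxn2 was at 262 ± 58.9 CPM in Cbln1-detected and 267 ± 46.9 CPM in Cbln1-undetected neurons (0.00, SE 0.105).

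The genes most like each member were sought by Pearson correlation over the 517 neurons of log2(counts per 10000 + 1), centred within each mouse, among 6651 genes with a count in at least 10% of neurons. The values are weak and descriptive, since neurons of a mouse share a library, and depth differed between the neurons of a mouse. For Cbln1 they were Bdnf (r = 0.32), the postsynaptic calmodulin-binding gene Nrgn (0.28) and H2-Q2 (0.28). For Nrxn2 they were the microtubule gene Map1b (0.26), which also served to call neurons, Atp2a2 (0.23) and Vps13d (0.22), and for Nrxn3 they were Usp27x (0.21), Eif4g3 (0.21) and Ankrd17 (0.20). No gene reached 0.2 with Cbln2 or Grid1. Between members r lay at 0.13 for Nrxn2 and Nrxn3 and at 0.11 for Cbln2 and Cbln4.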

How the data were processed

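Per the labels' protocols, hypothalamus was dissociated with papain, cells were purified by fluorescence, and libraries used the BD Precise whole transcriptome method. The authors deposited whole-number counts per gene and well, 1 table per mouse. HTSeq and mm10 are named in the submitters' processing notes. The sources used here do not give the aligner, the strand, the handling of shared reads, or whether molecules or reads were counted.

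Wells were kept with at least 500 genes and under 25% mitochondrial counts, which left out 46 wells. Counts of neurons were summed per mouse and arm, with at least 5 neurons an arm, and tested with edgeR 4.0.16 in R 4.3.3 (quasi-likelihood, TMM, filterByExpr, threshold 0.05). The mouse was a block in comparisons of detected with undetected neurons, where both arms come from the same animal, and the splitting gene was not tested. CPM are counts scaled by the total of each sum. Detection means at least 1 count. DESeq2 1.42.0 was an alternative, as were RLE scaling, no filter, a limit of 2 counts, thinning (2184 counts, the 10th percentile, seed 7), no block and leaving out each mouse. Restricting to glutamatergic neurons was added after seeing the data. Intervals and limits for a count of 0 (3 counts) cover counting error only. No doublet caller was run. The labels number the mice. The exact tests use only the spread between these mice, while the edgeR p-values also draw on dispersions estimated over all genes. Some genes passed though the mice differed in direction, as Cbln4 did with Pdyn (2 mice higher and 4 lower).

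The 6 genes and the gene lists were chosen with earlier results of these data known. Named genes are the members, in ligand comparisons the 5 largest changes each way among genes that passed, reached 50 CPM and moved alike in every mouse, up to 4 passing members of each list, and up to 3 genes per member by correlation. The genes most like Cbln4 are not reported here. The neuropeptide and VMH identity lists share Bdnf and Adcyap1. Positions are from GENCODE vM21 (GRCm38). The fits were tested on simulated data. Well names are plate positions, shared by all 6 plates, and do not mark shared cells.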

Additional observations from a re-analysis of the deposited data

Results flagged for a closer look

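Of 36 sets of 6 mice (6 genes in 6 groups of neurons), 5 held 1 mouse whose level lay far from the others by Dixon's test. With normally spread values chance alone flags about 1 in 20 sets. That rate does not hold where all other mice stand at 0, as for Grid1 below. The groups also share neurons, so the number of flags is not read against it. Cbln1 in neurons with none of the 5 markers stood at 293 CPM in female 2, against 40.8 to 107 CPM in the other mice. Cbln4 in Tac1 neurons stood at 179 CPM in female 3, against 104 to 131 CPM. Nrxn3 in Rprm neurons stood at 56.6 CPM in male 1, against 28.3 to 34.3 CPM. Grid1 in Sst neurons stood at 6.30 CPM in male 3, which is 1 count, and at 0 in the other mice. Grid1 in neurons with none of the markers stood at 45.1 CPM in female 2, which is 2 counts, and at 0 in the other mice. Female 2, the shallowest library, gave 2 of the 5.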

How the results depend on the processing

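RLE scaling kept the direction of every result and its side of the threshold. The number of genes passing depended on the other choices, whose cause was not tested beyond what they change. With DESeq2 it was 4 for sex, 10 for Nr5a1, 7 for Tac1, 2 for Rprm, 28 for Pdyn, 1 for Sst, 25 for Cbln1, 1 for Cbln2 and 8 for Cbln4, against 0, 46, 31, 5, 79, 7, 97, 8 and 31 with edgeR. Without the filter it was 24 for sex, 54 for Tac1, 19 for Rprm, 15 for Sst, 189 for Cbln1 and 31 for Cbln2. Without the mouse as a replicate block it was 0 for Nr5a1, Tac1, Rprm, Cbln1, Cbln2 and Cbln4 and 1 for Pdyn and Sst. Thinning, which leaves fewer counts and genes, gave 0 for Nr5a1, 9 for Tac1, 1 for Rprm, 9 for Pdyn, 1 for Sst, 4 for Cbln1, 1 for Cbln2 and 1 for Cbln4. A limit of 2 counts gave 2 for Rprm, 12 for Sst and 11 for Cbln4. Glutamatergic neurons alone gave 29 for Nr5a1, 13 for Tac1, 3 for Sst, 8 for Cbln1, 13 for Cbln2 and 20 for Cbln4. Leaving out 1 mouse gave 0 to 3 for sex (3 without female 1), 28 to 44 for Nr5a1, 16 to 45 for Tac1, 2 to 9 for Rprm, 42 to 82 for Pdyn, 4 to 8 for Sst, 38 to 123 for Cbln1, 4 to 14 for Cbln2 and 9 to 35 for Cbln4. The low ends came without female 3 (Nr5a1), male 3 (Tac1, Cbln1, Cbln2, Cbln4), female 2 (Rprm), male 1 (Pdyn) and male 2 (Sst).

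Members that did not pass, and Sst, which passed with Tac1 and Cbln1, changed sign in places (log2). Thinned, Nrxn2 was at -0.17 for sex, -0.13 for Tac1, -0.40 for Sst, -0.40 for Cbln1 and 0.19 for Cbln2, Cbln4 at 0.25 for Nr5a1, and Cbln1 at -0.62 for Cbln2 and -0.19 for Cbln4. With a limit of 2 counts Nrxn2 was at -0.19 for Sst. In glutamatergic neurons Cbln1 was at -0.049 for Pdyn and 0.11 for Sst, Cbln4 at 0.14 and Nrxn2 at -0.021 for Cbln1, and Sst at 0.59 for Tac1 and 0.61 for Cbln1. Without the filter Cbln4 was at 0.0057 for Cbln1 and Cbln1 at -0.051 for Cbln4, and with DESeq2 Nrxn2 was at -0.0042 for Cbln1. Leaving out 1 mouse spread Cbln4 for sex over -0.22 to 0.38, Cbln2 for Tac1 over -0.53 to 0.15, Nrxn2 for Rprm over -0.078 to 0.22 and for Pdyn over -0.17 to 0.011. For Cbln1 it spread Cbln2 over -0.59 to 0.15, Cbln4 over -0.32 to 0.28 and Nrxn2 over -0.075 to 0.10, and for Cbln4 it spread Cbln1 over -0.11 to 0.084 and Nrxn2 over -0.065 to 0.25.

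The male minus female difference in detection turned to -1.54 percentage points for Nrxn2 and -0.053 for Nrxn3 after thinning, and to 0.297 for Grid1 with a limit of 2 counts. Co-detection differences turned, thinned, to -1.29 (Cbln1 with Cbln4, 5 mice), -13.6 (Cbln1 with Nrxn2, 6 mice) and -2.71 points (Cbln2 with Nrxn2, 6 mice). In the 3 mice with enough neurons for Nrxn3 they turned to 0.693 (Cbln2 with Nrxn3) and 3.92 points (Cbln4 with Nrxn3). Leaving out 1 mouse spread them over -7.89 to 3.97 (Cbln1 with Cbln2), -1.91 to 2.79 (Cbln1 with Cbln4), -0.602 to 5.59 (Cbln2 with Nrxn2) and -3.20 to 3.44 points (Cbln4 with Nrxn3).

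The replicate numbers of males and females only name samples: same-numbered mice correlated at -0.13, -0.08 and 0.16 in their deviations over genes, and the sex comparison with the number as a replicate block gave 0 genes, as without it. Where a member was under the filter in a setting, as Cbln2 was for Pdyn after thinning and in glutamatergic neurons, that setting gave no value. Depth limits Grid1 and Nrxn3 most, with 28 and 118 counts in all.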
